A study of Mus musculus with 20 samples.

Results

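Cd44 encodes the cell-surface glycoprotein CD44, and Spp1 encodes osteopontin, a secreted protein that binds CD44. These 2 of the 27962 gene names on the array were read by all probes other than controls that the arrays name Cd44 or Spp1, which are 4 of 41174 probes, 3 for Cd44 and 1 for Spp1. The arrays measured liver and white adipose tissue (WAT) of male C57BL/6 mice, 7 months old, fed for 21 weeks on a diet rich in fat (HFD, 35% fat). The 4 groups were WT(HFD) liver, CD44KO(HFD) liver, WT(HFD) WAT and CD44KO(HFD) WAT, with 5 arrays each. The diet was common to all 20 arrays, so no group fed normal chow enters these comparisons. CD44KO mice carry a targeted Cd44 gene in every cell, and the methods give them as a line obtained from another laboratory and backcrossed onto C57BL/6J. Neither the labels nor the methods say which part of Cd44 was removed or whether the WT mice were littermates.

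CD44 is the main receptor for hyaluronan, a sugar polymer of the extracellular matrix, and it is found on leukocytes, fibroblasts and many epithelia. Its transcript is spliced in many ways, since a run of variable exons in the middle of the gene can be kept or left out. Osteopontin is made by activated macrophages, bile duct epithelium and activated stellate cells, among others, and holds an Arg-Gly-Asp motif that binds integrins. Cleavage by thrombin or by matrix metalloproteinases changes which integrins it binds. Both genes are known for high expression in macrophages of obese adipose tissue and in injured, fat-laden liver.

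The 4 probes are 60-base oligonucleotides, and their positions below are those of the files, in build mm7. They are shown because the Cd44 probes read different stretches of the transcript and do not give the same result. No gene model of mm7 was used here, so the exon or untranslated region under each probe is not given. All 3 Cd44 probes are on the minus strand of chromosome 2, identified as NM_009851. The probe called here the first 3′ probe, at chr2:102663537-102663596, has 1 spot on an array. The second 3′ probe, at chr2:102662297-102662356, has 10 spots and lies 1240 bases further in the direction of transcription. The variant probe, at chr2:102685050-102685109, has 1 spot and lies 21513 bases upstream of the first 3′ probe. The files list 3 RefSeq transcript variants of Cd44 for each of the 3′ probes and 2 of them for the variant probe. The Spp1 probe, NM_009263 at chr5:103631152-103631211 on the plus strand, has 10 spots. The first 30 bases are printed for the 3′ probes and for Spp1, and the whole 60 bases for the variant probe, which tells transcript forms apart.
Cd44, first 3′ probe: cactgggatcttatcatcagataagcaggt
Cd44, second 3′ probe: gccaattgcttaggtatgtacaatgagttt
Cd44, variant probe: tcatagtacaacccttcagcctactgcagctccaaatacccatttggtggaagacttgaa
Spp1: cttagtctgttgtttcatgcaaacaccgtt

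Levels are log2 signals from which the 75th percentile of the same array was subtracted, so that 0 is the signal that 75% of the spots on an array do not exceed. A level is compared between arrays for the same probe only. The 75th percentile lay between 432.7 and 574.6 on the liver arrays, where 57.4% to 61.9% of the spots were well above background, and between 1541 and 2792 on the WAT arrays, where 63.2% to 89.5% were. The upper end belongs to WT(HFD) WAT replicate 1, which stands apart from the rest and on which epididymis markers summed to 1.70 times the 75th percentile, against 0.0329 to 0.280 on the other 9 WAT arrays. WAT results are therefore given with and without it. Liver and WAT were hybridised on different slides, so tissue and slide cannot be told apart. Summed hepatocyte markers were higher on all liver arrays than on any WAT array, and summed adipocyte markers lower. Nothing says that the same replicate number is the same mouse, and p-values measure the spread between these samples.

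Cd44, the targeted gene, separated the genotypes on every array. On the WT(HFD) liver arrays the first 3′ probe read 0.83, 0.64, 0.11, 0.35 and 0.46. On the CD44KO(HFD) liver arrays it read -3.79, -4.19, -3.39, -4.06 and -3.24, and 3 of the 5 were still well above background. The groups did not overlap, as was the case for 11.7% of the 24689 probes tested in liver. The difference was -4.21 (SE 0.20, adjusted p = 6.73e-06, limma with Benjamini-Hochberg adjustment, n = 5 and 5), an 18.5-fold lower signal, where 13.6% of the probes tested were called in either direction at an adjusted p of 0.05. The size depends on the processing: with normexp background correction and an offset of 50 added to all signals, the difference was -2.53. Such an offset makes the difference between a dim and a bright signal smaller. An exact two-sided permutation test over the 252 relabellings gave p = 0.00794, the smallest it can give.

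The second 3′ probe read -1.39, -1.76, -2.36, -2.24 and -1.81 on the WT(HFD) liver arrays. It read -6.93, -6.58, -6.27, -6.50 and -6.13 on the CD44KO(HFD) liver arrays, none of which was well above background. Its fold is therefore a lower bound, in which a dim signal counts as the dimmest one that the same array measured well above background: the signal was at least 7.95-fold lower in CD44KO(HFD) liver (measured difference -4.57, SE 0.20, adjusted p = 4.15e-06, limma). By measured values this was the third largest difference among all probes tested in liver, and the first 3′ probe was the fifth. For the second 3′ probe that rank rests on signals not well above background. Under normexp, with the same offset of 50, the difference of the second 3′ probe was -1.22 with an adjusted p of 0.0664 (limma). There CD44KO(HFD) replicate 3 read -1.34, while the rest of its group read -3.18 to -2.95.

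In WAT the same probes fell again. The first 3′ probe read 3.92, 4.19, 4.56, 4.13 and 3.55 in WT(HFD) WAT. It read -0.35, -0.58, -0.40, -0.53 and -0.67 in CD44KO(HFD) WAT. The groups did not overlap, as for 6.17% of the probes tested in WAT, and the difference was -4.57 (SE 0.19, adjusted p = 7.72e-06, limma), a 23.8-fold lower signal. The second 3′ probe read 2.40, 2.90, 2.89, 2.50 and 2.04 in WT(HFD) WAT. It read -2.12, -1.31, -1.45, -1.87 and -1.90 in CD44KO(HFD) WAT, a difference of -4.28 (SE 0.22, adjusted p = 3.90e-05, limma) or 19.4-fold. These probes had the smallest and the next smallest p among 27654 probes tested in WAT, where 11 probes, or 0.0398%, were called, 0.0289% lower and 0.0108% higher. Leaving out WT(HFD) WAT replicate 1 or any other array kept both calls.

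**Figure D1:**
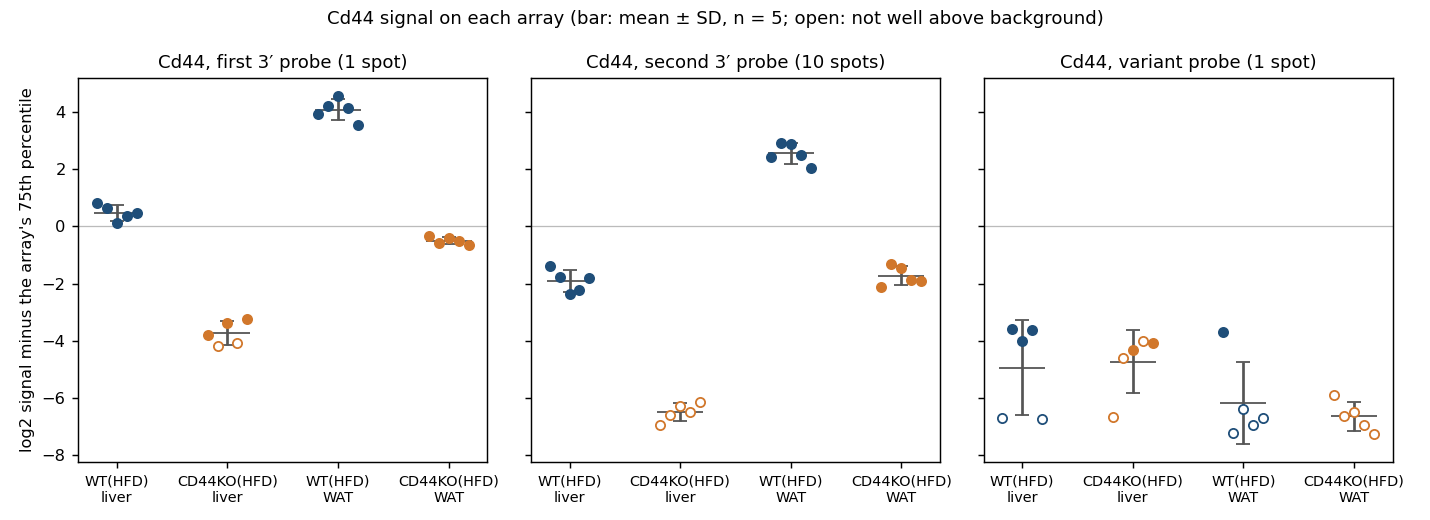
Cd44 level of the 3 probes on each of the 20 arrays, in log2 signal minus the array's 75th percentile, with points for arrays, bars for mean ± SD (n = 5) and open points for arrays not well above background. For both 3′ probes the CD44KO(HFD) arrays lie below all WT(HFD) arrays of the same tissue, whereas the variant probe lies near background in all 4 groups.

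A Cd44 signal remained in the CD44KO(HFD) arrays. In CD44KO(HFD) WAT both 3′ probes were well above background on all 5 arrays, at 4.20% and 5.16% of the WT(HFD) signal, and all 10 spots of the second 3′ probe were well above background on each array. In CD44KO(HFD) liver the first 3′ probe was at 5.39% of WT(HFD), a share for which 2 of the 5 arrays were not well above background and which is larger with normexp (difference -2.53 in place of -4.21). Whether these probes lie inside or outside the removed part of the gene is not given in the sources used here, and a remaining transcript was not told apart from other RNA that binds the probes.

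The variant probe gave no such difference. It read -6.71, -3.59, -4.01, -3.61 and -6.75 in WT(HFD) liver, where 3 arrays were well above background. It read -6.66, -4.61, -4.31, -4.01 and -4.08 in CD44KO(HFD) liver, where 2 arrays were. The groups overlapped over most of their range, and the difference was 0.20 (SE 0.79, adjusted p = 0.888, limma; 95% interval -1.54 to 1.94). In WAT it was well above background on WT(HFD) replicate 1 alone, at -3.68, while the other 9 arrays read between -7.24 and -5.89, so it was not tested there. The stretch of Cd44 that it reads was thus not measurable on most arrays, and a difference in it could not be seen.

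Cd44 was higher in WAT than in liver of WT(HFD) mice. The first 3′ probe was higher in WAT by 3.59 (SE 0.20, adjusted p = 2.04e-07, limma), a 12.1-fold difference. The second 3′ probe was higher by 4.46 (SE 0.23, adjusted p = 1.18e-07), or 22.0-fold. No WAT array overlapped a liver array for either probe, in a comparison in which 57.7% of 28365 probes did not overlap and 68.2% were called, 33.5% as higher in WAT. Several marker lists were higher there too. All 8 macrophage markers and all 8 of lipid-associated macrophages were called higher in WT(HFD) WAT. Their median differences were 2.68 and 4.92, beside -0.05 over all probes tested. So were 5 of 5 adipocyte markers (median 10.6), 4 of 5 mesothelial markers (3.92) and 5 of 6 stellate cell and fibroblast markers (1.78). In each of the last 2 lists 1 marker was called lower. All 4 hepatocyte markers tested and 2 of 5 Kupffer cell markers were called lower as well. Which cells the Cd44 signal came from was not tested. In these tissue samples more cells of a type and more RNA per cell cannot be told apart.

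Ordered by the first 3′ probe, Cd44 was highest in WT(HFD) WAT (4.07 ± 0.37, SD, n = 5), then in WT(HFD) liver (0.48 ± 0.28), CD44KO(HFD) WAT (-0.51 ± 0.13) and CD44KO(HFD) liver (-3.74 ± 0.41). Each neighbouring pair in that order was separate on all arrays (exact permutation p = 0.00794 each). By the second 3′ probe, CD44KO(HFD) WAT (-1.73 ± 0.34) and WT(HFD) liver (-1.91 ± 0.39) overlapped and were not distinguished (exact permutation p = 0.460). The genotype difference in WAT minus that in liver was -0.36 (SE 0.28, adjusted p = 0.552) for the first 3′ probe and 0.29 (SE 0.31, adjusted p = 0.664) for the second, by the interaction term in limma. The 95% intervals were -0.96 to 0.23 and -0.36 to 0.95. With normexp and its offset of 50 these differences were -1.87 and -2.85, with adjusted p of 0.0119 and 0.00219 (limma). Processed signals in CD44KO(HFD) liver averaged 39.5 on the first and 5.81 on the second 3′ probe. An offset of that size by itself makes the liver loss smaller. The comparison thus changes with this setting, and the normexp values cannot show whether the loss differs between tissues.

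Spp1, osteopontin, was lower in the liver of CD44KO(HFD) mice than in that of WT(HFD) mice. It read 6.26, 5.37, 4.74, 4.12 and 4.55 on the WT(HFD) liver arrays. It read 3.30, 3.11, 4.21, 3.01 and 3.70 on the CD44KO(HFD) liver arrays. WT(HFD) replicate 1 was the highest of all, and CD44KO(HFD) replicate 3 lay just above WT(HFD) replicate 4, so the groups overlapped by that pair of arrays. Each of the 5 CD44KO(HFD) values lay under the mean of WT(HFD). The mean fell by 1.54 on the log2 scale (SE 0.39, adjusted p = 0.0302, limma), to 34.4% of the WT(HFD) level, with a 95% interval of the difference from -2.40 to -0.68. The exact permutation test gave p = 0.0159. Of all probes tested in liver, 5.74% were called lower, and Spp1 had the 185th lowest difference of 24689.

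The 10 spots of the Spp1 probe differed within an array by an SD of 0.043 to 0.073 in liver. The difference held within each of the 3 liver slides, at -1.69, -1.45 and -1.44, and the adjusted p with slide as a block was 0.0229. The call depended on which array was left out: the difference moved between -1.76 and -1.23 and the adjusted p (limma) between 0.0184 and 0.0750. It was above 0.05 without WT(HFD) replicate 2 (0.0750) and without CD44KO(HFD) replicate 1, 2, 4 or 5 (0.0671, 0.0668, 0.0728 and 0.0552).

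In WAT, Spp1 did not separate the genotypes. It read 4.84, 3.68, 3.71, 3.76 and 2.82 in WT(HFD) WAT. It read 3.59, 3.43, 4.86, 4.39 and 4.07 in CD44KO(HFD) WAT. The ranges overlapped almost wholly, with 3 CD44KO(HFD) arrays above the WT(HFD) mean and 2 below it. The difference was 0.31 (SE 0.38, adjusted p = 0.693, limma; exact permutation p = 0.492), with a 95% interval from -0.55 to 1.16. That interval excludes a fall as large as the mean fall in liver. Within slides the sign was not the same: -0.55 on the slide with 2 arrays of each genotype, and 1.46 on the slide with 1 CD44KO(HFD) and 3 WT(HFD) arrays. The third slide held CD44KO(HFD) arrays alone. Without WT(HFD) replicate 1, which had the highest WT(HFD) level, the difference was 0.58 (adjusted p = 0.432).

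**Figure D2:**
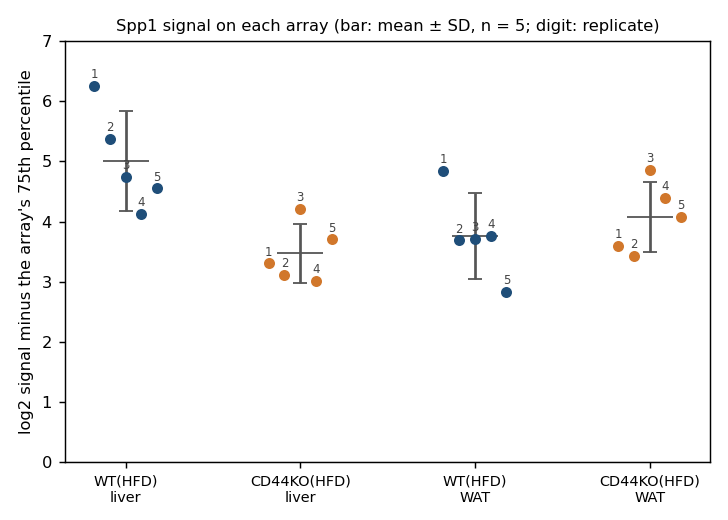
Spp1 level on each of the 20 arrays, in log2 signal minus the array's 75th percentile, with replicate numbers above the points and bars for mean ± SD (n = 5). The CD44KO(HFD) liver arrays sit between 3.01 and 4.21 and the WT(HFD) liver arrays between 4.12 and 6.26, while the WAT groups overlap.

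**Figure D3:**
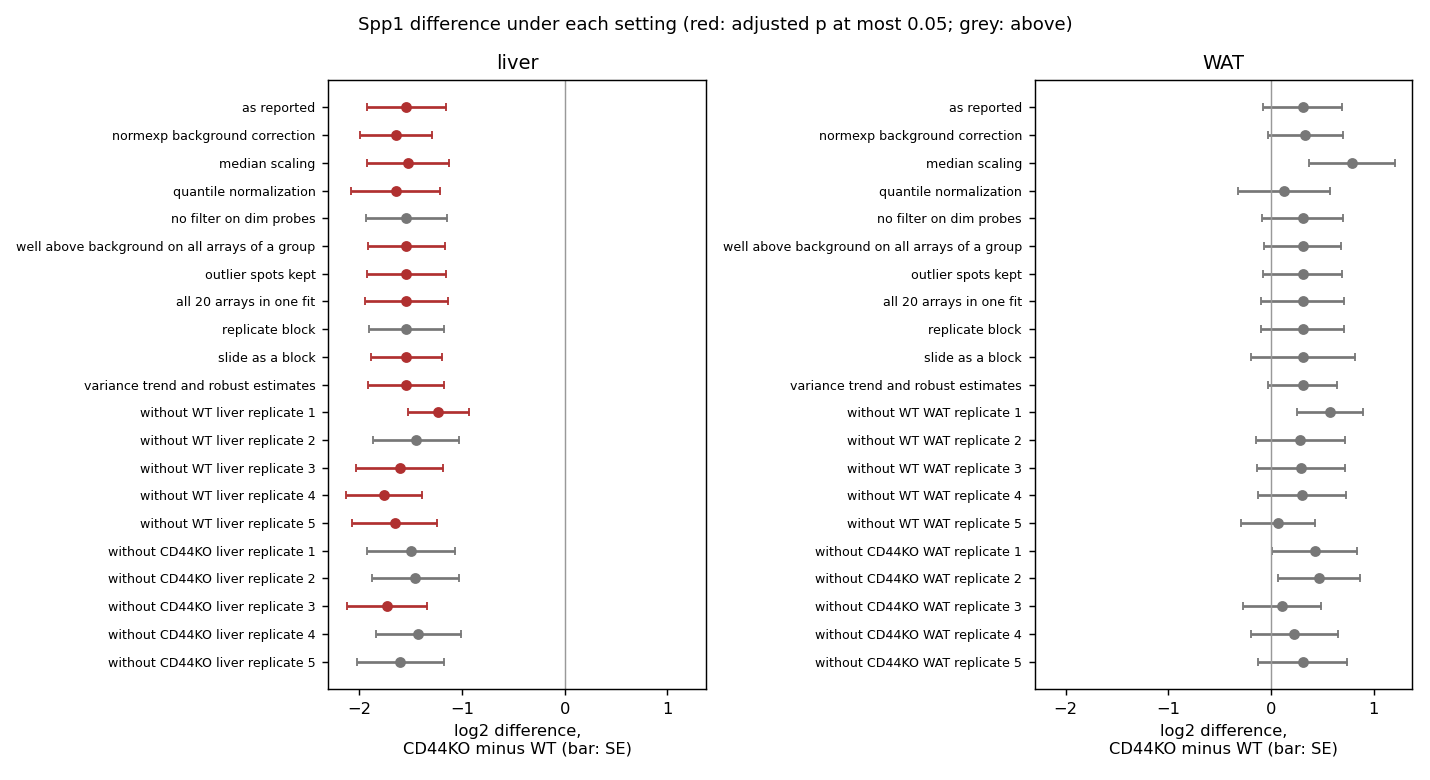
Difference in Spp1 between genotypes under each processing setting and with each array left out, in log2 units with SE bars. The liver difference stays below 0 in all settings shown but its adjusted p is at most 0.05 (red) in only part of them, and the WAT difference is above 0 and not called (grey) in all.

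The genotype difference of Spp1 in WAT exceeded that in liver by 1.85 (SE 0.57, 95% interval 0.65 to 3.05). By limma's interaction term, with Benjamini-Hochberg adjustment over 28989 probes, the adjusted p = 0.115 misses the threshold. Of these probes 1.15% were called, 0.869% in this direction. Taken as a single value, an exact permutation of the genotype labels within each tissue, over 63504 relabellings, gave p = 0.0112. That permutation tests the case in which the genotype has no effect in either tissue.

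Between tissues Spp1 ran opposite to Cd44. In WT(HFD) mice it was lower in WAT than in liver, with a difference of -1.25 (SE 0.45, adjusted p = 0.0330, limma; exact permutation p = 0.0317) and all 5 WAT arrays below the liver mean, where 34.7% of all probes were called lower. Under quantile normalization the difference was -0.33 with an adjusted p of 0.611, so its size depends on the scaling between tissues. Over the 4 groups the mean levels ran from WT(HFD) liver (5.01 ± 0.83, SD, n = 5) to CD44KO(HFD) WAT (4.07 ± 0.59), WT(HFD) WAT (3.76 ± 0.72) and CD44KO(HFD) liver (3.47 ± 0.49). No neighbouring pair in this order was distinguished (exact permutation p = 0.0714, 0.492 and 0.476).

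Within a group of 5 mice the order by Cd44 was set beside the order by Spp1, with no test, since each group holds only 10 pairs of mice. In WT(HFD) liver, 8 of the 10 pairs had the same order for the first 3′ probe and Spp1, and WT(HFD) replicates 1 and 2 were the highest for both genes. In CD44KO(HFD) liver, where the Cd44 signal was near background, 8 of 10 pairs had the same order by the first 3′ probe and 6 by the second. In WAT the counts by the first 3′ probe were 5 of 10 for WT(HFD) and 6 of 10 for CD44KO(HFD), and with normexp 7 of 10 for both. By the second 3′ probe they were 4 and 6. The 2 Cd44 probes themselves gave the same order in only 4 of 10 pairs in CD44KO(HFD) WAT, so the order by Cd44 is unsure there. In the other groups they did so in 8 to 10 pairs. The pairs share each array's scaling, which moves both probes together.

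**Figure D4:**
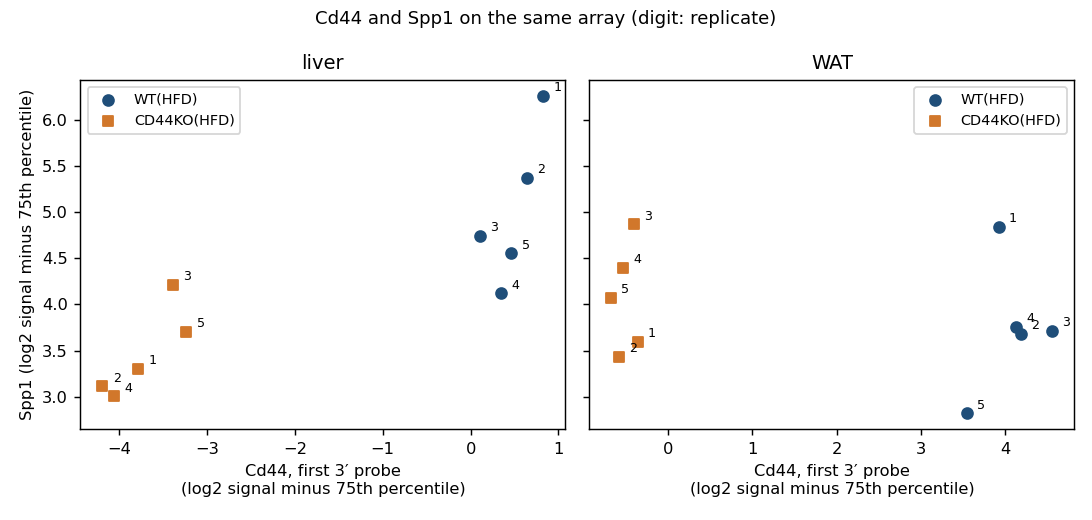
Level of the first Cd44 3′ probe (x axis) against that of Spp1 (y axis), both in log2 signal minus the array's 75th percentile, for each liver array (left) and WAT array (right), with replicate numbers. In liver the WT(HFD) arrays lie to the right and mostly higher, while in WAT the genotypes are apart along the Cd44 axis only.

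Markers of other cells moved with Spp1 in liver. Of the 8 markers of lipid-associated macrophages, 7 were tested and 6 fell in CD44KO(HFD) liver, beside 5.74% of all probes called lower, with a median of -1.33 beside 0.08 over all probes tested. Gpnmb, a glycoprotein of lipid-laden macrophages, was well above background on all 5 WT(HFD) arrays and on 1 CD44KO(HFD) array, so that its measured difference of -4.40 (adjusted p = 0.0157) has no firm size. Trem2, a lipid-sensing receptor, fell by 2.53 (SE 0.41, adjusted p = 0.0104). The 8 markers summed to 76.2 to 99.0 times the 75th percentile in WT(HFD) liver and to 50.6 to 74.3 times in CD44KO(HFD). These ranges did not overlap, as was the case for 11.7% of the probes tested in liver. The sum follows Ctsd most, the brightest of the 8 (mean level 6.14 in WT(HFD) and 5.72 in CD44KO(HFD)). Fabp5 was not well above background on any liver array. With no filter on dim probes 2 of the markers were called, and with normexp 4.

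Of 7 general macrophage markers tested none was called (8 listed; median -0.55), and their sums overlapped, at 46.5 to 105.2 and 40.9 to 120.5. All 5 markers of Kupffer cells, the resident macrophages of the liver, had the higher mean in CD44KO(HFD). Of them 2 rose, Marco by 2.95 and Timd4 by 2.99, beside 7.82% of all probes called higher. Timd4 was well above background on only 3 of the 5 WT(HFD) arrays, so its difference has no firm size. Of 6 stellate cell and fibroblast markers 4 fell, among them Col1a1 by 2.38 and Pdgfrb by 0.83, and all 6 had the lower mean in CD44KO(HFD). Of the cholangiocyte markers, which mark bile duct epithelium, all 4 tested had the lower mean in CD44KO(HFD), with a median of -0.46, and 1 fell, Sox9 by 0.70. Cldn4 and Cftr were not well above background. Of the T cell markers 4 of 7 fell, while Cd3e and Cd4 had the higher mean in CD44KO(HFD), by 0.12 and 0.20, and were not called. Of the NK cell markers 3 of 4 tested fell. Of the mesothelial markers 1 of 3 tested fell, which was Krt8. Msln and Upk3b had the higher mean in CD44KO(HFD), by 0.62 and 0.76, and were not called, so no direction is given for mesothelium. Summed signals did not overlap between genotypes for stellate cells and fibroblasts (94.8 to 134.8 in WT(HFD), 64.8 to 91.1 in CD44KO(HFD)), cholangiocytes (1.28 to 1.93 and 0.972 to 1.27) and NK cells (0.581 to 1.27 and 0.314 to 0.391) either. The calls in these lists depended on the setting. With normexp none was called for T cells, NK cells or cholangiocytes, 1 for Kupffer cells and 4 for stellate cells and fibroblasts, and the medians of T and NK cells went from -0.84 to -0.18 and from -1.41 to -0.09. With no filter none was called for Kupffer cells or cholangiocytes, 1 for stellate cells and fibroblasts, and 3 each for T and NK cells. Of the markers tested for hepatocytes (4), adipocytes (2), B and plasma cells (5), neutrophils (3) and epididymis (2) none was called. The part of these cells in the Spp1 difference was not tested. In WAT none of these lists held a called gene, and the sums of lipid-associated macrophage markers overlapped (407.5 to 649.9 in WT(HFD), 467.3 to 595.7 in CD44KO(HFD)). All 8 of these markers were higher in WT(HFD) WAT than in WT(HFD) liver, as Cd44 was. Spp1 was lower there, by an amount that depended on the scaling (-0.33 under quantile normalization, adjusted p = 0.611, limma). A link between these tissue differences was not tested.

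The pathway around both genes was read from 10 lists of 82 genes, each by its brightest probe in the arrays compared. In liver 65 were tested, and 5 were called lower and 11 higher in CD44KO(HFD), or 16 of 65, beside 5.74% lower and 7.82% higher among all probes tested. Without the filter on dim probes 1 was lower and 4 were higher, and with normexp 0 were lower and 1 was higher. In WAT 77 were tested and none was called, with or without WT(HFD) replicate 1. Of these 16 calls, those of Mmp3, Ncstn and Pdhx held with any single array left out, and each of the other 13 was lost in 1 to 9 of 10 such fits.

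Among the integrins that bind osteopontin, 8 of 9 were tested in liver, with a median of -0.23. Itgb5, the beta subunit that pairs with alpha v, fell by 0.27 (SE 0.06, adjusted p = 0.0258). For Itgb3, the other classic partner of alpha v, the probes disagreed. The probe used for the liver lists rose by 1.55 (SE 0.34, adjusted p = 0.0206) and the other fell by 0.40 (adjusted p = 0.0185), so no direction is given for the gene. Itgav, Itgb1, Itga4, Itga5, Itga8 and Itga9 were not called.

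Of the enzymes that act on osteopontin, 7 of 9 were tested, with a median of -0.43. Mmp3, a metalloproteinase that cleaves it, was well above background on 3 WT(HFD) liver arrays and on no CD44KO(HFD) liver array, and was at least 1.42-fold lower in the latter (measured difference -2.19, adjusted p = 0.0178). Mmp7, another that cleaves it, fell by 0.77 (SE 0.19, adjusted p = 0.0286). F2, prothrombin, rose by 0.29 (SE 0.08, adjusted p = 0.0423). Of the other members of the osteopontin family, Mepe alone was tested and was not called (0.31, adjusted p = 0.185), and Ibsp, Dmp1 and Dspp were not well above background in liver. The genes beside Spp1 on chromosome 5 held no call in 8, and the smallest p was that of Ppm1k, a mitochondrial phosphatase (0.71, adjusted p = 0.0890).

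On the CD44 side, Hyal2, a hyaluronidase, rose by 0.32 (adjusted p = 0.0281), the call among 6 hyaluronan enzymes and receptors tested of 11. Of 4 other CD44 ligands tested, Lgals9, which encodes galectin-9, rose by 0.34 (adjusted p = 0.0327). Among the proteases that release the CD44 ectodomain and its intracellular part, Adam17 fell by 0.28 (adjusted p = 0.0336), with its other probe at -0.31, and the gamma-secretase subunits Ncstn and Psenen rose by 0.45 and 0.37 (adjusted p = 0.0145 and 0.0265). Of 12 membrane and cytoskeletal partners, Iqgap1, a scaffold of the actin cytoskeleton, fell by 0.95 (adjusted p = 0.0332; its other probe at -0.53 was not called). Met, the hepatocyte growth factor receptor, rose by 0.49 (adjusted p = 0.0181; its other 2 probes were not called). Of the splicing regulators Esrp2, an epithelial factor that favours variable exons, rose by 0.43 (adjusted p = 0.0446) and Srrm1 by 0.35 (adjusted p = 0.0222).

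The genes beside Cd44 on chromosome 2 were read as well, since they flank the targeted locus. Of 7 tested in liver, 2 rose, beside 7.82% of all probes: Cat, catalase, by 0.49 (SE 0.14, adjusted p = 0.0412) and Pdhx, a subunit of pyruvate dehydrogenase, by 0.45 (SE 0.08, adjusted p = 0.0134). In WAT, Cat differed by 0.81 (SE 0.14, adjusted p = 0.128) and Pdhx by 0.59 (SE 0.17, adjusted p = 0.203), neither past the threshold. In liver 1 of the list was called with no filter and none with normexp. The median over this list was -0.004 in liver and 0.38 in WAT, where the median over all probes was 0.08 and -0.06.

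**Figure D5:**
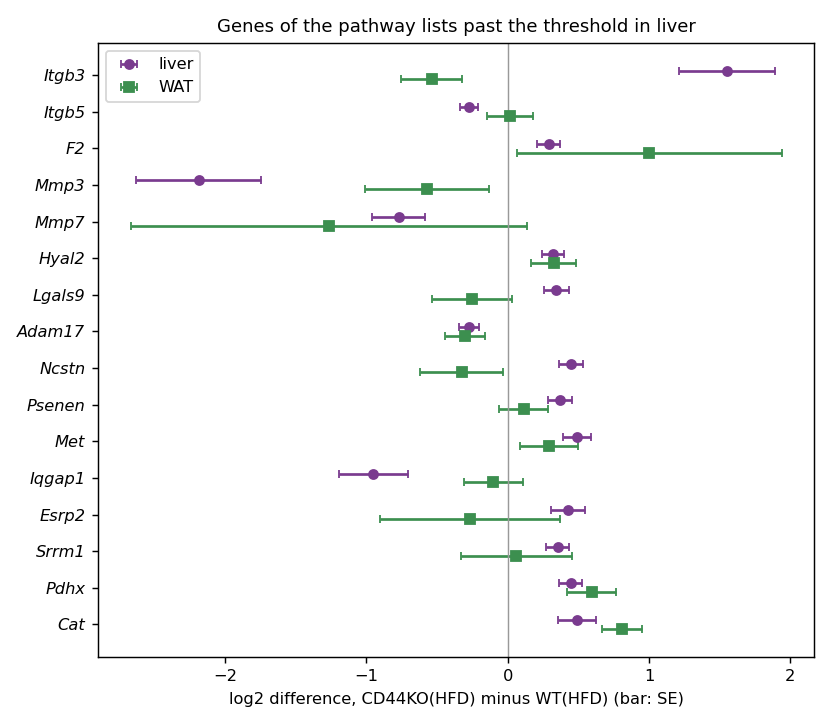
Log2 difference, CD44KO(HFD) minus WT(HFD), with SE bars, of the 16 pathway genes past the threshold in liver (circles), and of the brightest probe in WAT (squares). They were picked by their liver value; none was called in WAT, and for Itgb3 and Esrp2 the circle and the square are different probes.

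The genes with the most similar pattern to Spp1 over the 10 liver arrays, by Pearson correlation of levels, were Adam8 (r = 0.992), Mfge8 (0.991), Nid1 (0.990), Rragd (0.990) and Arhgap22 (0.986). Adam8 encodes a metalloprotease of leukocytes, Mfge8 a bridging protein for the uptake of dying cells and Nid1 a basement membrane protein. These arrays hold both genotypes, so a shared genotype difference raises r, and no p is given. In WAT the highest r was 0.946, for Anln, and the 5 genes with the highest r over 10 arrays were Anln, Cyp2c37, Tarsl2, Ypel1 and Klkb1. Without WT(HFD) replicate 1 none of the 5 stayed among the first 5, which were then Copa (0.985), Wwp1, Zfp248, Mex3b and Pdk4.

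For the first Cd44 3′ probe, over the 10 WT(HFD) arrays after each tissue's mean was subtracted, the most similar were Pamr1 (r = 0.989), Timp2 (0.988), Pip4p1 (0.968), Emilin2 (0.966) and Prcp (0.965). Pamr1, which encodes a secreted protease-like protein, is itself a neighbour of Cd44, with its probe at chr2:102493658-102493717. Without WT(HFD) WAT replicate 1, Pamr1 (0.991) and Timp2 (0.988) stayed the first and the second. In the genotype comparisons Pamr1 differed by -0.56 in liver (adjusted p = 0.0870) and by 0.67 in WAT (adjusted p = 0.275), so the level of this neighbour was not called where Cd44 itself was lost. Timp2, an inhibitor of metalloproteinases, fell by 0.85 in liver (adjusted p = 0.0162).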

How the data were processed

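Total RNA was read on 20 single-colour Agilent mouse arrays, 1 per sample. The authors deposited the intensity of each spot, the processed signal of Feature Extraction 9.5.3.1, with mean and local background intensities and quality marks. Per the file headers, spatial and multiplicative trends within arrays had been corrected, and the background correction setting was off. Whether the spatial correction took away background was not read. The dimmest signals had been replaced by estimates, and well above background meant 13 SD. No scaling between arrays had been applied.

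Outlier spots were left out, log2 processed signals were scaled to each array's 75th percentile, and spots were averaged per probe. A probe was tested where 3 or more of the 5 arrays of a group held it well above background, with limma 3.58.1 in R 4.3.3 (lmFit, eBayes, Benjamini-Hochberg over all probes tested, threshold 0.05), without a replicate block. The test was run on simulated data first. Single probes also had exact permutation tests, and 95% intervals come from the fits. The interaction used all 20 arrays. Of 41174 probes, 22951 were matched to current symbols by accession. Alternatives were another background correction, other scalings, filters, variance models, blocks and left-out arrays. The other background correction was normexp, with an offset of 50 added to all signals.

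Named genes are every Cd44 and Spp1 probe, pathway genes past the threshold in a genotype comparison (otherwise the one with the smallest p in its list), and the 5 symbols most correlated with each gene. Marker lists of 13 cell types were read the same way, by brightest probe. Members and lists were chosen with earlier results of these data known. The number of arrays limits the precision.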

Additional observations from a re-analysis of the deposited data

Results flagged for a closer look

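Each value of the Cd44 and Spp1 probes in the 4 groups, and of the 16 called pathway genes in liver, was set against the other 4 arrays of its group (48 sets of 5 arrays), and 3 sets had an array far from the rest, where chance gives about 1 in 20. The Cd44 variant probe in CD44KO(HFD) liver had replicate 1 at -6.66, with the next array at -4.61 (gap over range 0.773). The same probe in WT(HFD) WAT had replicate 1 at -3.68 and the next at -6.37 (gap over range 0.760), and this is the array that stands apart in other measures. Esrp2 in CD44KO(HFD) liver had replicate 3 at 3.099, with the next at 3.58 (gap over range 0.730).

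The genotype difference was compared between tissues for the Cd44 and Spp1 probes and for each pathway gene called in liver, and 2 genes passed a test. Among all probes the limma interaction called 1.15%. The exact permutation test counted as a pass for Spp1 only. For Spp1 the difference in WAT minus that in liver was 1.85, which passed the exact permutation test within tissues (p = 0.0112) but not limma after adjustment over all probes (adjusted p = 0.115). For the Itgb3 probe used for the liver lists it was -1.89 (limma interaction, adjusted p = 0.0305), and the other Itgb3 probe went the other way in liver. The probe used entered the check by its call in liver. The liver values are part of the interaction, so that choice favours a difference between tissues.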

How the results depend on the processing

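The Cd44 and Spp1 differences within tissues and between tissues by the 3′ probes and the Spp1 probe kept their direction in all settings run, while the variant probe and the Cd44 interaction terms did not. The loss of Cd44 in liver by the second 3′ probe was -1.22 (adjusted p = 0.0664) with normexp. Under normexp CD44KO(HFD) liver replicate 3 stood apart from its group, at -1.34 on this probe, against -3.18 to -2.95. On the first 3′ probe it read -1.21, against -2.69 to -2.39. The part of this array in the other normexp results that use the liver arrays was not tested. The fall of Spp1 in liver was not called with no filter on dim probes (-1.54, adjusted p = 0.0655) or with the replicate number as a block (-1.54, adjusted p = 0.0592). The deviations of same-numbered arrays had r from -0.26 to 0.36 over the pairs of genotypes. Without the same measure for differently numbered arrays, this does not settle whether the numbers pair the arrays. The lower Spp1 level in WT(HFD) WAT was not called with no filter (-1.25, adjusted p = 0.0519) or quantile normalization (-0.33, adjusted p = 0.611). For the interaction, normexp gave -1.87 and -2.85 for the Cd44 3′ probes, median scaling gave 0.11 for the first, and quantile normalization gave 0.18 for the variant probe. Median scaling moved the median over all probes in WAT from -0.06 to 0.42, and the Spp1 difference there to 0.79 (adjusted p = 0.538). The cause of these changes was not tested.

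Leaving out each array in turn moved the Spp1 difference from -1.76 to -1.23 in liver and from -1.51 to -0.93 between tissues, where it was not called without WT(HFD) liver replicates 1 or 2 or WT(HFD) WAT replicates 2, 3, 4 or 5. The variant probe ran from -0.25 to 0.68 in liver, below 0 without WT(HFD) replicate 1 or 5.

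Counts over all probes depended on the setting. In liver 3349 probes were called, and 641 with normexp, 1028 with no filter, 708 with all 20 arrays in 1 fit, 1317 with the replicate block, and 853 to 4641 with an array left out. In WAT 11 were called, and 35 with normexp, 19 with median scaling, 3 with no filter, 1813 with all 20 arrays, 3 with the replicate block, 4 with slide as a block, 125 with a variance trend, and 3 to 18 with an array left out. For the interaction 333 were called, and 19 with median scaling, 77 with no filter, 86 with the replicate block, 590 with a variance trend, and 82 to 577 with an array left out. Of the pathway genes in liver, 1 lower and 4 higher were called with no filter, and 0 and 1 with normexp. The list counts without WT(HFD) WAT replicate 1 were chosen after seeing the data.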
